A study of Mus musculus with 4 samples.

Results

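The genes described here are 38 transcriptional targets and regulators of p53, the tumor suppressor encoded by Trp53, in mouse embryonic fibroblasts (MEFs) that were being converted toward hepatocytes. They were chosen by gene symbol from the known p53 network, with earlier results of these data known. They were kept where their mean over the 4 libraries reached 10 normalized counts. All 38 passed that filter, out of 15809 genes that passed it and 55397 genes listed. They were sorted by role into 6 feedback regulators, 6 arrest genes, 14 apoptosis genes, 5 repair genes and 7 other targets.

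Prox1 encodes a homeobox factor of the liver, and the experiment compared active with inactive Cre in MEFs given hepatocyte factors. Primary MEFs were taken at E13.5 from C57BL/6J embryos with floxed Prox1 alleles, Prox1 fl/fl, and the study's methods pool the limbs of several embryos in a preparation. All 4 cultures received the lentiviral hepatocyte factors 4in1 (LV.4TF). The 2 libraries labelled Prox1 KO also received active Cre recombinase (FUW-GFP-Cre), the 2 controls received the non-functional ΔCre (FUW-GFP-dCre), and total RNA was collected at day 14 of reprogramming. Each group has replicates 1 and 2. Active Cre and the deletion it makes are in the same libraries, so an effect of the recombinase and an effect of losing Prox1 cannot be told apart. The labels do not say whether replicates came from separate embryos. Xist, an RNA of female cells, had 14495 and 13944 normalized counts in replicates 1 and 4.89 and 1.06 in replicates 2. The replicate numbers therefore differed in the sex of their cells and were not the same preparation. P-values measure only the spread between these libraries, shared in large part across genes.

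Libraries held 42469031 to 48524008 reads on genes, and mitochondrial genes took between 0.841% and 0.982% of them. Prox1 itself was not lower where Cre was active. It had 72.7 and 61.6 normalized counts in the 2 labelled Prox1 KO and 60.6 and 25.5 in the controls (log2 difference 0.75, SE 0.27, adjusted p = 0.0936 in limma). This value sums reads over the whole gene and does not show the deleted part alone. The check of the targeted gene therefore did not show the deletion. At 24 to 70 reads per library, it cannot tell whether the deleted part was lost. Every direction given here is that of the libraries labelled Prox1 KO against the controls.

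p53 binds DNA as a tetramer and switches on genes that stop the cell cycle, repair DNA or start apoptosis. In unstressed cells its own target Mdm2 marks the p53 protein for destruction, so that p53 activity is set mostly by protein stability and modification and less by Trp53 mRNA. In cultured fibroblasts p53 activity limits proliferation, and in reprogramming to pluripotency it is known as a barrier.

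The p53 binding motif is a decamer with 3 purines, a core of 4 bases and 3 pyrimidines, and a full response element holds a pair of decamers. Promoter windows of 300 bases, from 250 before to 50 after each RefSeq start site on GRCm38.p6, were searched for the decamer, which reads the same on both strands. Of the 38 genes, 29 were in the promoter table, and 9 were not (Xpc, Perp, Pmaip1, Tnfrsf10b, Trp53inp1, Rrm2b, Zmat3, Ddb2 and Pvt1). A decamer lay in a window of 11 of the 29 (37.9%), against 2582 of all 27025 genes in the table (9.55%). A stretch matching at least 19 of the 20 bases of a full element without spacer lay in 3 of the 29 (10.3%), against 29 of the 27025 (0.107%). Those 3 genes were Ccng1, Cdkn1a and Rps27l. The targets were chosen from the known p53 network, so these larger shares are no independent result. They also had more windows per gene, 41 for 29 genes against 32851 for 27025. A match describes letters only and does not show that p53 was bound in these cells.

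The 3 near-full elements are shown first, because they were the closest matches to p53 binding DNA among the target promoters. Each is printed on the strand of its gene with 10 bases on either side, and capitals mark the 20-base element, which has 1 mismatch in each. The Ccng1 stretch is chr11:40755452-40755491 on the minus strand, with the element from 195 to 176 bases before the start site. The Cdkn1a stretch is chr17:29090918-29090957 on the plus strand, from 51 to 32 bases before it. The Rps27l stretch is chr9:66946286-66946325 on the plus strand, from 117 to 98 bases before it. Cdkn1a and Rps27l each have another RefSeq start site, whose window held no decamer. Positions are counted from the start site whose window held the element.
Ccng1: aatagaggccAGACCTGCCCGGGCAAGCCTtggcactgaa
Cdkn1a: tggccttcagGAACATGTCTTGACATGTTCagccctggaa
Rps27l: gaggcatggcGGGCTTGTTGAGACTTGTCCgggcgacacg

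Another 4 targets that passed the expression test had a decamer without a near-full element. They are shown because genes of both directions, Mdm2 and Ppm1d with higher and Bax and Sesn1 with lower reads, held the same kind of motif. Capitals mark the decamer. Sesn1 has a further RefSeq start site, and only the window of the start inside the gene held the decamer. The stretches are chr10:117710925-117710954 on the minus strand for Mdm2, chr11:85311112-85311141 on the plus strand for Ppm1d, chr7:45467080-45467109 on the minus strand for Bax and chr10:41887256-41887285 on the plus strand for Sesn1.
Mdm2: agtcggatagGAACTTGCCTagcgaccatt
Ppm1d: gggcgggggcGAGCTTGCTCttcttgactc
Bax: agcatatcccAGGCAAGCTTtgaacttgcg
Sesn1: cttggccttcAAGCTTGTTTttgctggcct

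Of the 9 targets that passed the expression test, 6 were in the promoter table, and 5 of these had a decamer (Ccng1, Mdm2, Ppm1d, Bax and Sesn1), while no window of Gdf15 did. That is 83.3% of few genes, against 37.9% of the 29 targets and 9.55% of all genes in the table. A link between motif and call was not tested. The whole promoter window of Ccng1, chr11:40755237-40755536 on the minus strand, is given because this gene combined a near-full element with a called difference.
Ccng1: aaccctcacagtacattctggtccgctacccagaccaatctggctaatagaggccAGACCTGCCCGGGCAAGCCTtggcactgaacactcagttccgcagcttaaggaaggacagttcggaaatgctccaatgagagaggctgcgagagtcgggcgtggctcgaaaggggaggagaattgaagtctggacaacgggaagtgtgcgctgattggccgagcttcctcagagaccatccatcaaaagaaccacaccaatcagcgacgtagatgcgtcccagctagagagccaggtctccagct

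In the libraries labelled Prox1 KO, 7 of the 38 p53 targets were higher, namely Pmaip1, Gdf15, Perp, Ppm1d, Trp53inp1, Mdm2 and Ccng1. Their levels were 15.8% (Ccng1) to 40.0% (Gdf15) above those of the controls. Bax and Sesn1 were lower, and 29 targets did not pass the test, Cdkn1a and Trp53 among them. The test was limma on log2(normalized counts + 1) over all 15809 genes, with the replicate number as a block and Benjamini-Hochberg adjustment at a threshold of 0.05. On this scale the fold of a gene with few reads is understated. With only 4 libraries, limma takes the spread of a gene mostly from all tested genes of similar level. The SE and p-value of a gene therefore say little about its own spread. In the same fit 5.09% of all tested genes were called higher and 6.29% lower, against 18.4% and 5.26% of the targets. The targets had many reads, with 35 of the 38 above the median level of all tested genes (774 normalized counts). Among the targets the SE ran from 0.039 to 0.14, largest for Ddb2, which had the fewest reads. A gene with a small SE passes at a smaller difference. The shares of all genes were not matched for level, and the list was chosen with earlier results of these data known. These are bulk cultures, in which fewer cells of a type and less RNA per cell cannot be told apart.

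The calls depended on the block. Without it, no target and no gene at all passed (0 of 15809, with 1783 at an unadjusted p under 0.05), while the estimates were the same. Once the GC content and length of each gene's longest transcript were corrected for, 12 targets were called higher and 1 lower. Of all 15797 genes in that fit, 1130 were higher and 824 lower. The share of higher genes among all calls was then 57.8% of 1954 instead of 44.7% of 1798.

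**Figure D1:**
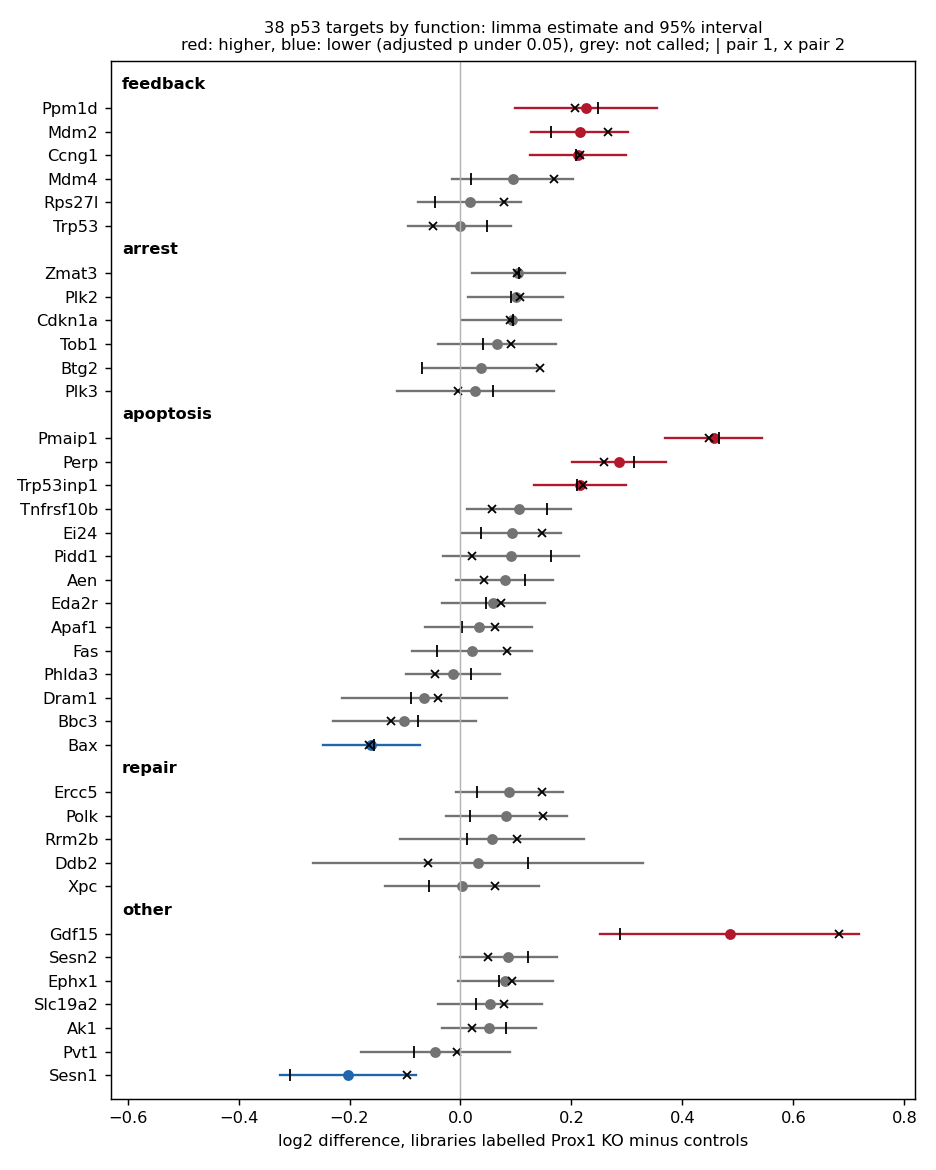
Log2 difference of each of the 38 targets (libraries labelled Prox1 KO minus controls) with the 95% interval of the limma fit, ordered by role, with a vertical tick for replicate pair 1 and a cross for pair 2. The 7 red genes were called higher and the 2 blue genes lower, and the 29 grey genes lay between -0.10 and 0.11.

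Feedback regulators had the highest median of the 5 roles, 0.15 on the log2 scale. Of the 6, 3 were called higher (50%), against 5.09% of all tested genes. Mdm2 (ENSMUSG00000020184, chr10:117688875-117710758 on the minus strand), the ubiquitin ligase that degrades p53, had 19539 and 17164 normalized counts in replicates 1 and 2 labelled Prox1 KO and 17449 and 14273 in the controls. Each library labelled Prox1 KO was above its same-numbered control, but replicate 2 with Cre lay below control replicate 1, so the groups overlapped. On the log2 scale Mdm2 differed by 0.21 (SE 0.041, adjusted p = 0.00284 in limma), or 16.0%.

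Ccng1 (ENSMUSG00000020326, chr11:40748552-40755311 on the minus strand), which encodes cyclin G1 and directs a phosphatase to Mdm2, had 54494 and 48825 normalized counts against 47178 and 42029 in the controls. Both libraries labelled Prox1 KO were above both controls. The log2 difference was 0.21 (SE 0.041, adjusted p = 0.00308 in limma), and the 2 replicate pairs gave 0.21 and 0.22.

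Ppm1d (ENSMUSG00000020525, chr11:85311244-85347066 on the plus strand) encodes the Wip1 phosphatase, which dephosphorylates p53 and its upstream kinases. Its normalized counts were 1428 and 1202.3 in the 2 labelled Prox1 KO and 1202.6 and 1042 in the controls. The groups overlapped by less than 1 normalized count, between replicate 2 with Cre and control replicate 1. For Ppm1d this was a log2 difference of 0.23 (SE 0.060, adjusted p = 0.0229 in limma).

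Trp53 (ENSMUSG00000059552, chr11:69580359-69591873 on the plus strand) had 5099 and 5058 normalized counts against 4935 and 5235 in the controls, with the pairs in opposite directions. The log2 difference was -0.0013 (SE 0.044, adjusted p = 0.991 in limma) and became 0.03 with GC content and length corrected for. The 95% interval of the fold ran from 0.937 to 1.07. The remaining feedback genes did not pass the test. Mdm4, the Mdm2 relative that blocks p53 activity, differed by 0.09, and Rps27l, a ribosomal protein relative that binds Mdm2, by 0.02, which turned to -0.0019 under quantile normalization.

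**Figure D2:**
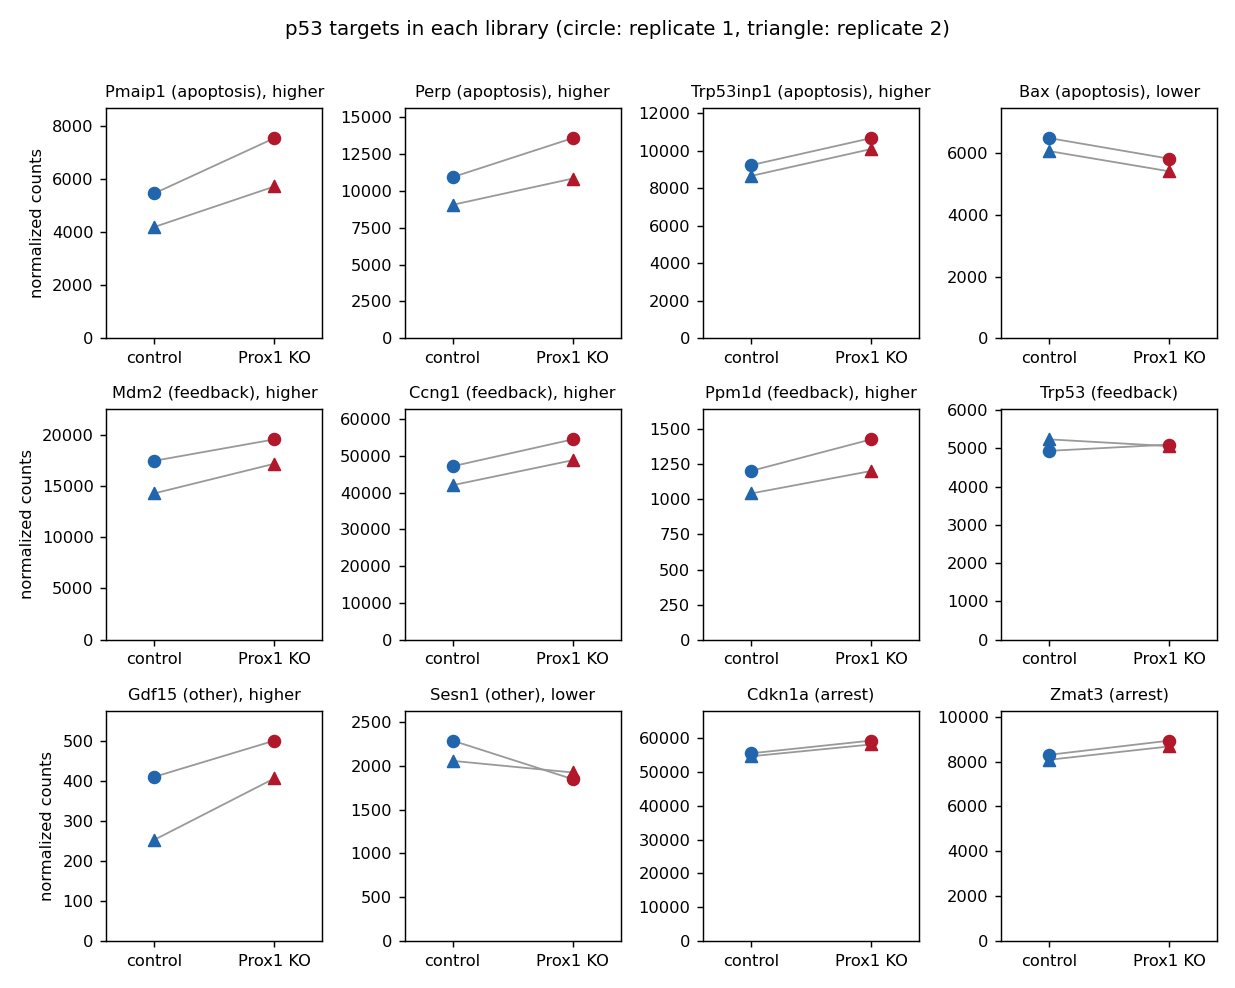
Normalized counts of 12 targets in each of the 4 libraries, with lines joining libraries of the same replicate number (circles replicate 1, triangles replicate 2) and a y axis that starts at 0 in every panel. Lines rise toward the libraries labelled Prox1 KO for Pmaip1 and the other genes called higher, fall for Bax and Sesn1, and cross for Trp53.

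None of the 6 arrest genes passed the test, although all 6 estimates were above 0, from 0.03 (Plk3) to 0.10 (Zmat3). With 5.09% of all tested genes called higher and 6.29% lower, none of 6 is close to the share of all genes. Cdkn1a (ENSMUSG00000023067, chr17:29090976-29100727 on the plus strand), the p21 inhibitor of cyclin-dependent kinases, had the most reads of all 38 targets. It had 59320.2 and 58178 normalized counts in the 2 labelled Prox1 KO and 55559.9 and 54679.9 in the controls. Both libraries with Cre were above both controls, at a log2 difference of 0.09 (SE 0.042, adjusted p = 0.191 in limma). The 95% interval of its fold, not adjusted for the number of genes, ran from 1.00 to 1.13. Cdkn1a passed the test only with GC content and length corrected for, at a log2 difference of 0.14. An annotated transcript on the opposite strand, AC167363.2, overlaps 7.68% of its exonic length, and the strand setting of the read counting is not given in the sources used here.

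Zmat3 (ENSMUSG00000027663, chr3:32334792-32366014 on the minus strand), an RNA-binding zinc finger protein that acts in p53-dependent growth control, had 8932 and 8673 normalized counts against 8299.7 and 8079.5. The groups did not overlap, and the log2 difference of 0.10 (SE 0.040) did not pass the test (adjusted p = 0.112 in limma). Btg2, an antiproliferative adaptor of mRNA decay, varied more with the replicate number than with Cre. Its values were 10697 and 7869.7 with Cre and 11222 and 7128 in the controls, so both replicates 1 were above both replicates 2.

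Apoptosis genes differed in both directions. Of the 14, 3 were called higher, 1 was called lower, and the 10 others lay between -0.10 (Bbc3) and 0.11 (Tnfrsf10b). The called shares were 21.4% and 7.14%, against 5.09% and 6.29% of all tested genes. The lower share was close to that of all genes. Pmaip1 (ENSMUSG00000024521), which encodes the BH3-only protein Noxa that neutralises Mcl1, had 7551 and 5728 normalized counts in the 2 labelled Prox1 KO and 5468 and 4202 in the controls. Both libraries with Cre were above both controls. The log2 difference of 0.46 (SE 0.041, adjusted p = 4.08e-06 in limma) was a 1.37-fold level with a 95% interval of 1.29 to 1.46, and the pairs gave 0.47 and 0.45.

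Perp (ENSMUSG00000019851, chr10:18845020-18857073 on the plus strand), a membrane protein of desmosomes that p53 induces in apoptosis, had 13553 and 10817 normalized counts against 10912 and 9039.7. Replicate 2 with Cre was just below control replicate 1, so the groups overlapped, although the difference was positive in each pair. Perp differed by 0.29 on the log2 scale (SE 0.040, adjusted p = 0.000242 in limma), or 21.9%.

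Trp53inp1 (ENSMUSG00000028211, chr4:11156431-11174379 on the plus strand), a nuclear protein that promotes p53 phosphorylation and autophagy, had 10685 and 10101 normalized counts against 9243 and 8666 in the controls. The groups did not overlap. Trp53inp1 differed by 0.22 on the log2 scale (SE 0.039, adjusted p = 0.00210 in limma).

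Bax (ENSMUSG00000003873, chr7:45461697-45466898 on the minus strand), the pore-forming protein of the mitochondrial outer membrane, went the other way. It had 5829.9 and 5420.2 normalized counts in the 2 labelled Prox1 KO and 6499 and 6076 in the controls, with both libraries with Cre below both controls. The log2 difference was -0.16 (SE 0.041, adjusted p = 0.0184 in limma), and both pairs gave -0.16. The gene Gm45808 overlaps it on the same strand over 12.2% of its exonic length, and 9.49% of its windows of 100 bases also occur in Gm45808, so a part of its reads cannot be assigned with certainty. DESeq2 on the recovered reads called none of Bax, Sesn1, Gdf15 and Ppm1d, at differences of the same sign.

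Among the other apoptosis genes, Bbc3, which encodes the BH3-only protein Puma, had 1158 and 1132 normalized counts against 1221 and 1235. Both libraries with Cre were below both controls, and the log2 difference of -0.10 did not pass the test (SE 0.061, adjusted p = 0.342 in limma). The death receptors Fas and Tnfrsf10b differed by 0.02 and 0.11, and Apaf1, the scaffold of the apoptosome, by 0.03, none of which passed. Phlda3, an inhibitor of Akt, was at -0.01 and turned to 0.03 with GC content and length corrected for.

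No repair gene passed the test, which for 5 genes is close to the 5.09% higher and 6.29% lower of all tested genes. The 5 estimates ran from 0.0023 for Xpc, which recognises lesions in nucleotide excision repair, to 0.09 for Ercc5, the endonuclease of the same pathway. Ercc5 (ENSMUSG00000026048, chr1:44147744-44181260 on the plus strand) had 4881 and 4663 normalized counts in the 2 labelled Prox1 KO and 4782 and 4211 in the controls. Replicate 2 with Cre was below control replicate 1, and the log2 difference of 0.09 (SE 0.045) did not pass (adjusted p = 0.252 in limma). Ddb2, the damage sensor with the fewest reads of the 38 (at least 174 in every library), had the widest error, an SE of 0.14, and Acp2 on the opposite strand covers 23.8% of its exonic length.

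Of the 7 targets with other roles, Gdf15 was higher and Sesn1 lower (14.3% each, against 5.09% and 6.29% of all tested genes). Gdf15 (ENSMUSG00000038508, chr8:70629393-70632456 on the minus strand), a secreted stress cytokine, had 499.9 and 405.7 normalized counts with Cre and 409.4 and 252 in the controls. Control replicate 2 was the low library, and replicate 2 with Cre was below control replicate 1, so the groups overlapped. Gdf15 differed by 0.49 on the log2 scale (SE 0.11, adjusted p = 0.00915 in limma), the largest of the 38, but it was 0.29 in pair 1 and 0.68 in pair 2.

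Sesn1 (ENSMUSG00000038332, chr10:41809935-41908424 on the plus strand), a sestrin that restrains mTORC1 when leucine is low, had 1848 and 1924 normalized counts in the 2 labelled Prox1 KO and 2288 and 2057 in the controls. Both libraries with Cre were below both controls. The log2 difference was -0.20 (SE 0.057, adjusted p = 0.0333 in limma), with -0.31 in pair 1 and -0.10 in pair 2, and the call was lost with GC content and length corrected for, at a log2 difference of -0.18. Its relative Sesn2 had a log2 difference of 0.09 and did not pass. Ephx1, an epoxide hydrolase that had the highest level per kilobase of exon of the 38 (19890 normalized counts per kilobase, against 65.6 for Ddb2), differed by 0.08 and did not pass.

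Over the 38 targets, 31 estimates were positive and 7 negative, whereas 49.3% of all tested genes were positive. The median log2 difference was 0.07, or 5.19%, against -0.0022 over all tested genes. In pair 1 the median of the targets was 0.05 and in pair 2 it was 0.08. The difference was above 0 in both pairs for 25 of the 38 targets, against 32.5% of all tested genes, and below 0 in both for 5, against 33.3%. Both libraries with Cre were above both controls for 11 of the 38 targets, against 3451 of 15809 tested genes (21.8%). This share was only somewhat above that of all genes. They were below both controls for 3 targets, against 22.6% of all tested genes.

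**Figure D3:**
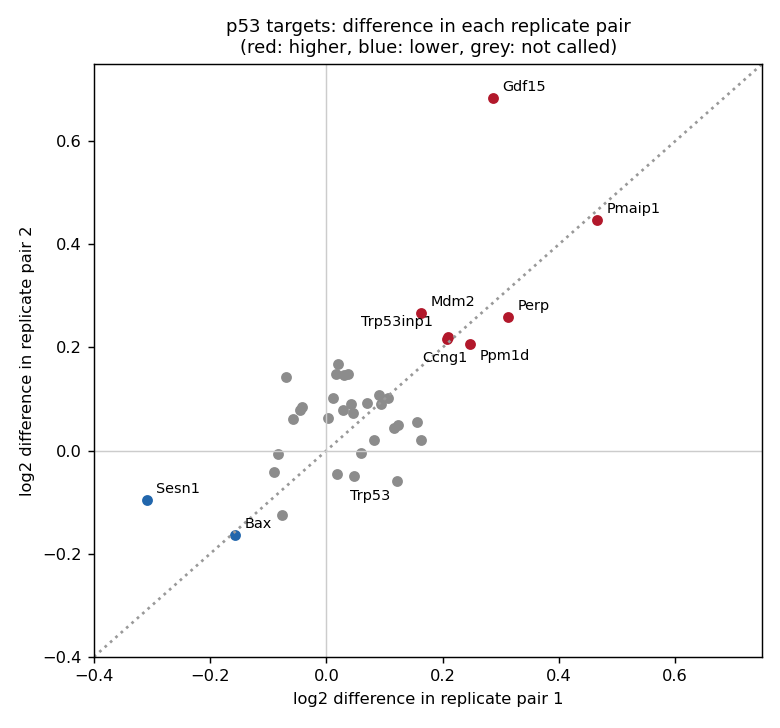
Each point is 1 of the 38 targets, with its log2 difference (library labelled Prox1 KO minus control) in replicate pair 1 on the x axis and in pair 2 on the y axis, and the dotted line marks equal differences. All 7 genes called higher are above 0 in both pairs, Bax and Sesn1 are below 0 in both, and Gdf15 stands off the line at 0.29 and 0.68.

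Targets also varied with the replicate number, which cannot be told apart from the sex of the cells. Replicate 1 was above replicate 2, on average over the groups, for 31 of the 38 targets (81.6%), against 50.8% of all tested genes. This difference was larger than the one between groups for 24 of the 38, against 45.9% of all tested genes. Among the called genes Mdm2, Perp, Ppm1d and Gdf15 were of this kind. They are the 4 whose groups overlapped, which is no separate result. Where both pairs agree in direction, the groups overlap exactly when the replicate difference is the larger. Pmaip1, Trp53inp1, Ccng1, Bax and Sesn1 differed more between groups than between replicate numbers. Across the 38 targets the differences in the 2 pairs had a Pearson correlation of 0.713 and a Spearman correlation of 0.53, which describes genes that share the same 4 libraries (0.364 and 0.383 over all tested genes).

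Of 30 other direct targets of p53 named, Trp73 was under the mean filter. Of the 29 tested, 4 were higher (Pltp, Rprm, Ptpn14 and Ptp4a3) and 2 lower (Steap3 and Cd82), with a median of 0.03. These are 13.8% and 6.90%, against 5.09% and 6.29% of all tested genes, so the lower share was close to that of all genes. Pltp, a phospholipid transfer protein, had 14504 and 13360 normalized counts against 11179 and 10848, and its groups did not overlap (log2 difference 0.34, SE 0.040, adjusted p = 5.62e-05 in limma). Steap3, an endosomal ferrireductase, had 1874 and 2431 against 2348 and 2972 (log2 difference -0.31, SE 0.049, adjusted p = 0.000702 in limma). Control replicate 1 was below replicate 2 with Cre, so the groups of Steap3 overlapped. Rprm, a G2 arrest protein, had a log2 difference of 0.19 (SE 0.058, adjusted p = 0.0456 in limma).

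None of the 19 upstream regulators tested, kinases, cofactors and ubiquitin ligases that act on p53, was called in limma, and 7 had an unadjusted p under 0.05. edgeR and DESeq2 with the block called none either. Over all tested genes limma called 5.09% higher and 6.29% lower, and 3751 of 15809 had an unadjusted p under 0.05. No call among 19 is thus close to the share of all genes. The upstream regulators had a median of 0.05. They include Atm, Atr, Chek1, Chek2, Cdkn2a, Hipk2 and Ep300.

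Cell cycle genes that p53 is known to lower through p21, RB and the DREAM complex were mostly lower. Of 20, 12 were lower (60%) and 1 higher (5%), with a median of -0.67. Over all tested genes 6.29% were lower and 5.09% higher, so the higher share was close to that of all genes. The part of p53 in these differences was not tested. Cdkn3, a phosphatase of cyclin-dependent kinases, had 4.16 and 8.80 normalized counts in the 2 labelled Prox1 KO and 23.0 and 35.1 in the controls (log2 difference -2.05, SE 0.42, adjusted p = 0.00476 in limma). Ccnb1, the mitotic cyclin B1, had 52.0 and 77.2 against 138.6 and 127.7, with the groups apart (log2 difference -1.06, SE 0.21, adjusted p = 0.00319 in limma). Plk1, the mitotic polo-like kinase, differed by -1.04 (SE 0.17, adjusted p = 0.00104 in limma). Rrm2, the ribonucleotide reductase subunit of S phase, was the only one higher, with 8334 and 6065 normalized counts against 5209.7 and 3922 (log2 difference 0.65, SE 0.042, adjusted p = 2.36e-07 in limma). DESeq2 called 3 of these cell cycle genes lower.

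**Figure D4:**
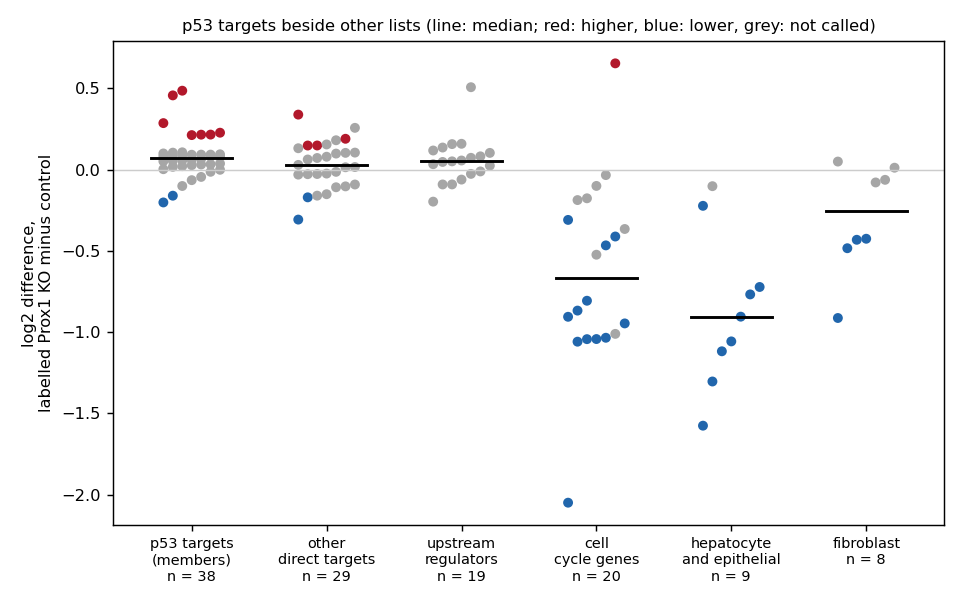
Log2 difference of every tested gene in 6 lists, with the 38 p53 targets at the left, red for higher, blue for lower, grey for not called and a black line at the list's median. The targets lie close to 0 with a median of 0.07, the cell cycle genes reach down to -2.05 with a median of -0.67, and the hepatocyte and epithelial markers have a median of -0.90.

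Marker lists moved with the groups too. Of the hepatocyte and epithelial markers, a list that includes the intended product of reprogramming, 8 of 9 were lower (88.9%), against 6.29% of all tested genes. The exception was Alb, which encodes albumin (log2 difference -0.10, adjusted p = 0.158 in limma), and Afp was 14.3% lower. All 9 estimates were below 0, and Epcam (-1.58), Krt8, Cdh1 and Krt18 differed most. The summed level of the 9 markers was 22161 and 24476 normalized counts in the 2 labelled Prox1 KO and 31539 and 37478 in the controls. All 8 fibroblast markers were above 0 in every library, and 4 of them (50%) were lower, with sums of 691415 and 885318 against 775006 and 968614. Among the markers of other cell types, Kdr of the endothelial list (4 markers, summed 932.5 to 1063 against 622.7 to 750.9) and Des of the muscle list (5 markers, 1663 to 1674 against 1216 to 1384) were higher. Kdr made up most of the endothelial sum, and Tek, the other endothelial marker tested, did not pass (log2 difference -0.11, with -0.71 in pair 1 and 0.50 in pair 2). The defining endothelial genes Pecam1 and Cdh5 and the muscle genes Myog, Myh3 and Ckm were under the mean of 10. Macrophage markers (5) summed to 306 and 360 against 303 and 285 with Adgre1 at 0 in every library, and adipocyte markers (3) to 1840.4 and 1438 against 1714 and 1215. The part of these cell types in the differences of the p53 targets was not tested.

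**Figure D5:**
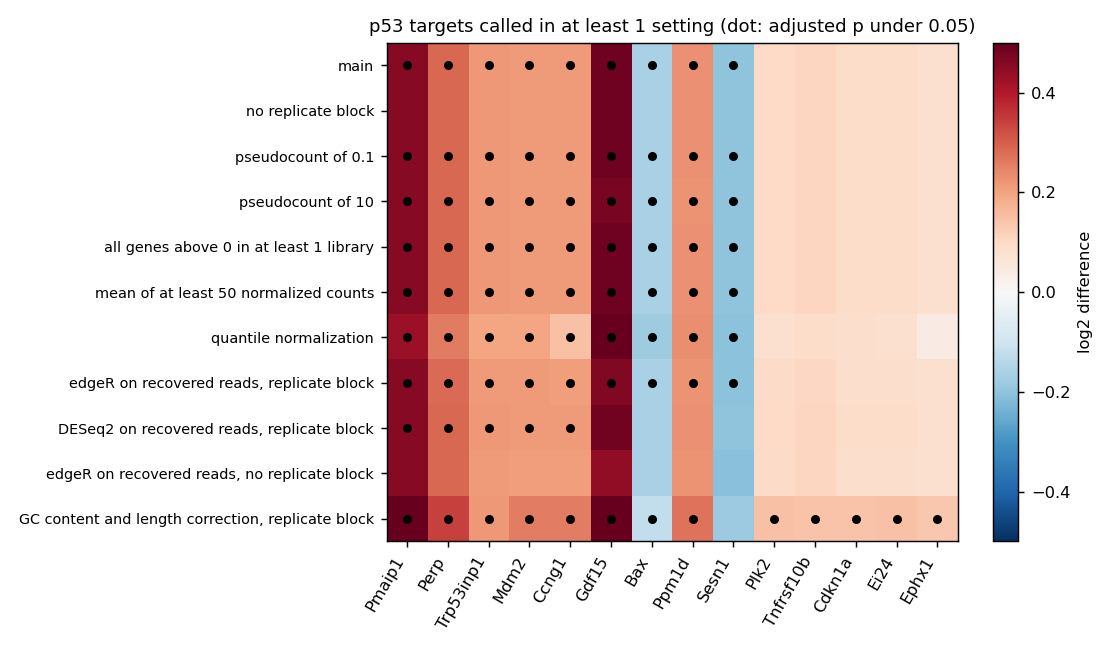
Log2 difference by color of the 14 targets called in at least 1 of 11 settings, with the main fit in the top row and a dot where the adjusted p was under 0.05. The 2 rows without the replicate block have no dot, DESeq2 has 5, and the GC content and length correction has 13, while the colors of the 9 genes called in the main fit keep their sign in every row.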

How the data were processed

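Bulk RNA-seq was read from 4 libraries, 2 labelled Prox1 KO and 2 controls, grouped by the sample titles. The authors prepared stranded dUTP libraries, mapped reads to mm10 with STAR, and deposited normalized counts, a signal per gene that equals read counts divided by the DESeq2 size factor of the library. The counting tool and annotation release are not given in the sources used here. The smallest step of each library gave size factors of 0.939 to 1.09, and 100% of values were then whole reads within a tolerance of 0.01. A second deposited table, with the authors' fold changes and p-values for this comparison, was not used.

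limma 3.58.1 (R 4.3.3) was fitted to log2(normalized counts + 1) of every gene whose mean reached 10 (intensity trend, two-sided, Benjamini-Hochberg adjustment, threshold 0.05). Pseudocount, filter and normalization alternatives, edgeR 4.0.16 and DESeq2 1.42.0 on recovered reads, a correction for GC content and length and fits without the block were run. Scripts were tested on simulated data. The replicate block comes from the study's methods, where the primary MEF line is a covariate. Same-numbered libraries deviated together (correlation 0.402 over all tested genes, 0.331 over autosomal genes), and Xist had 14495 and 13944 normalized counts in replicates 1 and 4.89 and 1.06 in replicates 2. That the numbers are MEF lines is not stated. Libraries of a group differed beyond sampling noise in 34.3% (Prox1 KO) and 35.4% (control) of genes by a chi-square test, so none was counted as a duplicate. Counting error does not cover amplification, as reads carry no molecular identifiers.

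The members and all lists were chosen with earlier results of these data known. Genes named with their values are the called members, Cdkn1a, Mdm2, Trp53, the largest member of each role in each direction and up to 3 called genes per other list. Btg2, Bbc3, Ddb2, Ephx1, Kdr, Des, Tek, Mcl1, Atf4, Alb, Afp, Epcam, Krt8, Cdh1 and Krt18 were named after their values were seen, as were members given only by a difference. Positions come from GENCODE vM21 on GRCm38, and promoter sequences from RefSeq on GRCm38.p6.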

Additional observations from a re-analysis of the deposited data

How the results depend on the processing

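The replicate block decided the calls. With no replicate block, limma called 0 of the 38 p53 targets higher and 0 lower (2 and 2 at an unadjusted p under 0.05), 0 of the other direct targets in either direction, and 0 cell cycle genes higher or lower. edgeR with no replicate block, an alternative chosen after seeing the data, also gave 0 in each of these, with 1767 of all genes at an unadjusted p under 0.05. Where the block was kept, the same 9 targets were called under pseudocounts of 0.1 and 10, both other filters, quantile normalization and edgeR. DESeq2 called 5 targets higher and 0 lower (2 lower at an unadjusted p under 0.05), 1 other direct target higher and 1 lower, 3 cell cycle genes lower, and 483 of all genes against 1798. The correction for GC content and length called 12 targets higher and 1 lower, and 1 other direct target lower. It turned Phlda3 to 0.0254 and Trp53 to 0.0320 on the log2 scale, and quantile normalization turned Rps27l to -0.0019. The other direct targets called higher were 2 with a pseudocount of 10 and 2 under quantile normalization, and 1 upstream regulator was higher when all genes above 0 were tested. The median of the targets ranged from 0.0465 to 0.0812 when replicates were left out. With 1 pair left no test could be fitted. For these settings the cause was not tested. Over the single targets in the 10 alternatives with a test, 5 values gained a call, 23 lost one, and the others, apart from the 3 that changed sign, kept their direction and their side of the threshold. With 1 pair alone, which gives no test, the 8 targets whose pairs had opposite signs changed sign (Fas, Btg2, Xpc, Rps27l, Phlda3 and Trp53 without replicate 2, Ddb2 and Plk3 without replicate 1), and none of them was called.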

Other observations

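Lists of neighbouring pathways were added after the values of these data had been seen, and are given as counts. Of 21 BCL-2 family, caspase and apoptosome genes, 19 were tested, and 1 was higher and 1 lower, with a median log2 difference of 0.02. Both shares were 5.26%, close to the 5.09% called higher and 6.29% called lower over all tested genes. Bcl2l1, which encodes the survival protein Bcl-xL, had 12327 and 11832 normalized counts in the 2 labelled Prox1 KO and 11154 and 10488 in the controls (log2 difference 0.16, SE 0.039, adjusted p = 0.0150 in limma). Bmf, a BH3-only protein linked to cell detachment, had 169.4 and 322.6 against 336 and 371.5 (log2 difference -0.59, SE 0.15, adjusted p = 0.0174 in limma), with its lowest value in replicate 1 with Cre. Mcl1, the survival protein that Noxa binds, differed by 0.06 and did not pass the test (adjusted p = 0.421 in limma).

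Of 16 genes of the integrated stress response, a pathway that shares Gdf15 and Sesn2 with p53, 15 were tested, and 4 were higher (Ddit3, Mthfd2, Vldlr and Phgdh) and 1 lower (Nupr1), with a median of 0.13. These are 26.7% and 6.67%, against 5.09% and 6.29% of all tested genes. Ddit3, the stress factor Chop, had 6821 and 6911 normalized counts against 6489 and 5807, with the groups apart (log2 difference 0.16, SE 0.047, adjusted p = 0.0355 in limma). Atf4, the central factor of this pathway, had 10032 and 10084 against 10436 and 9665 (log2 difference 0.0022, adjusted p = 0.986 in limma).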
